A study of Mus musculus with 32 samples.

Results

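Of the 4696 gene spots on each array, 1161 carried a gene title. From these, 6 spots were taken here for endoglin and the transforming growth factor beta (TGF-beta) pathway. They were chosen by title: endoglin (Eng), MAD homolog 3 (Smad3), MAD homolog 2 (Smad2), TGFB inducible early growth response (Klf10), transforming growth factor, beta 2 (Tgfb2) and transforming growth factor, beta induced, 68 kDa (Tgfbi). Eng, Smad3, Klf10 and Tgfb2 had been singled out with their ethanol differences already known, so the ethanol differences below are a description and carry no test. TGF-beta ligands bind a pair of receptor kinases on the cell surface, which phosphorylate the receptor-regulated SMAD proteins, and these move to the nucleus with a shared partner SMAD and change transcription. In brain, the pathway is known for its roles in blood vessels, in glia and in the response of neurons to injury. Endoglin is an accessory receptor of the pathway that is best known from the endothelium of blood vessels.

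The arrays held labelled RNA of mouse prefrontal cortex from lines bred from heterogeneous HS/Ibg stock for opposite severity of ethanol withdrawal. The line prone to withdrawal seizures is called WSP and the line resistant to them WSR, each kept as 2 independent breeding lines (WSP-1 and WSP-2, WSR-1 and WSR-2). Adult drug-naive mice of the 26th selected generation were injected with ethanol (1.5 g/kg, and a higher dose in WSP-2), breathed its vapor for 72 h and were sampled 21 days later, while their controls breathed air. Pyrazole, which inhibits alcohol dehydrogenase, was given to all mice, controls included, at 68.1 mg/kg. The 8 groups were female WSP ethanol and air, female WSR ethanol and air, male WSP ethanol and air, and male WSR ethanol and air, with 4 arrays each, and each array held RNA pooled from 2 mice. Every group had 2 pools from each of its 2 breeding lines, so a WSP or WSR result rests on 2 lines, and a p-value here reflects only how much pools varied. In such tissue RNA, fewer cells of a type and less RNA per cell cannot be told apart.

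The arrays differed in brightness by sex and line. Male WSR arrays had between 1682 and 2040 gene spots at 2 times the array background, against 518 to 604 in male WSP, 588 to 1428 in female WSP and 783 to 1095 in female WSR. After background correction and quantile normalization, 2084 gene spots that reached 2 times background on at least 4 of the 32 arrays were tested, and all 6 members were among them. Levels below are log2 intensities after this normalization, differences are differences of their group means with standard errors (SE) from the fit over all 8 groups, and signal over background is the deposited intensity divided by the background value of its array. An offset in the background correction draws the levels of dim spots together, and the normalization between arrays changes them again. The size of a difference between dim spots depends on both steps and may be too small or too large.

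The genes lie, in build GRCm38, at chr2:32646595-32682669 (Eng), chr9:63646766-63757994 (Smad3), chr15:38291464-38300711 (Klf10), chr1:186622787-186709697 (Tgfb2) and chr13:56609586-56639359 (Tgfbi); which part of a transcript each spot covers is not given in the array files. The promoters are shown for Eng, on which the ethanol values turn, and for Smad3 and Tgfbi, the members measured on nearly all arrays, as 250 bases before the gene start from RefSeq, build GRCm38.p6. The table matched 4 of the 6 members. Capitals mark matches on either strand to CAGAC, the core that SMAD proteins recognise, and to GGGCGG, the core bound by Sp1 and related factors; none of the marked matches overlap. Of 32851 promoters of this length, 42.2% held the first motif and 32.7% the second. The Eng stretch lies at chr2:32646345-32646594 on the plus strand, that of Smad3 at chr9:63757995-63758244 on the minus strand, and that of Tgfbi at chr13:56609336-56609585 on the plus strand.
Eng: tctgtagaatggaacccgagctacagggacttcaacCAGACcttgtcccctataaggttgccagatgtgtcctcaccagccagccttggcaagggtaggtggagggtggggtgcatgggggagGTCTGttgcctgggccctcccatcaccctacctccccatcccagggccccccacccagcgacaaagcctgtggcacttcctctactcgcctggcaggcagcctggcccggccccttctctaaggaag
Smad3: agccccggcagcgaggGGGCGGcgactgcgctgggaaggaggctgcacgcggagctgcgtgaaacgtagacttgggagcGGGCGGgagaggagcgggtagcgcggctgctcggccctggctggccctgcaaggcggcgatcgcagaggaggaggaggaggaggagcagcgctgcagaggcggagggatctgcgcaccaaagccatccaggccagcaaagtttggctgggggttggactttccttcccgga
Tgfbi: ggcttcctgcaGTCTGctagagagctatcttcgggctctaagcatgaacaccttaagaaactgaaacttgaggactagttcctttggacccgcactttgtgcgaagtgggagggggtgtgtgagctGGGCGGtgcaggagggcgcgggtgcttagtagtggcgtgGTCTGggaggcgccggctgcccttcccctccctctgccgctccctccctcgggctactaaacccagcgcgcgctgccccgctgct
Eng held 2 matches to CAGAC and 0 to GGGCGG, Smad3 held 0 and 2, and Tgfbi held 2 and 1. The Tgfb2 stretch, at chr1:186705990-186706239 on the minus strand, lies inside the gene interval given above, before a start within it, and held 2 matches to CAGAC and 0 to GGGCGG. A match is a description of these letters and no evidence of binding.

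Eng was a dim spot, at 2 times background on 11 of 32 arrays. In female WSP its signal over background was 1.74, 2.27, 3.01 and 3.96 on the ethanol arrays, against 1.09, 2.77, 1.55 and 1.15 on the air arrays. In male WSP it was 1.43, 1.58, 1.51 and 1.23 after ethanol, against 1.24, 1.13, 1.15 and 1.06 in air. The male WSP groups did not reach 2 times background on any array, so there is no measured fold between them. In female WSR the ratio was 1.39, 1.27, 1.41 and 1.33 after ethanol, against 2.09, 2.42, 1.08 and 1.27 in air. In male WSR it was 1.81, 3.09, 1.98 and 2.19 after ethanol, against 2.34, 3.50, 2.36 and 1.40 in air. The ethanol arrays were above most air arrays in both sexes of WSP, and in WSR they were not.

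**Figure D1:**
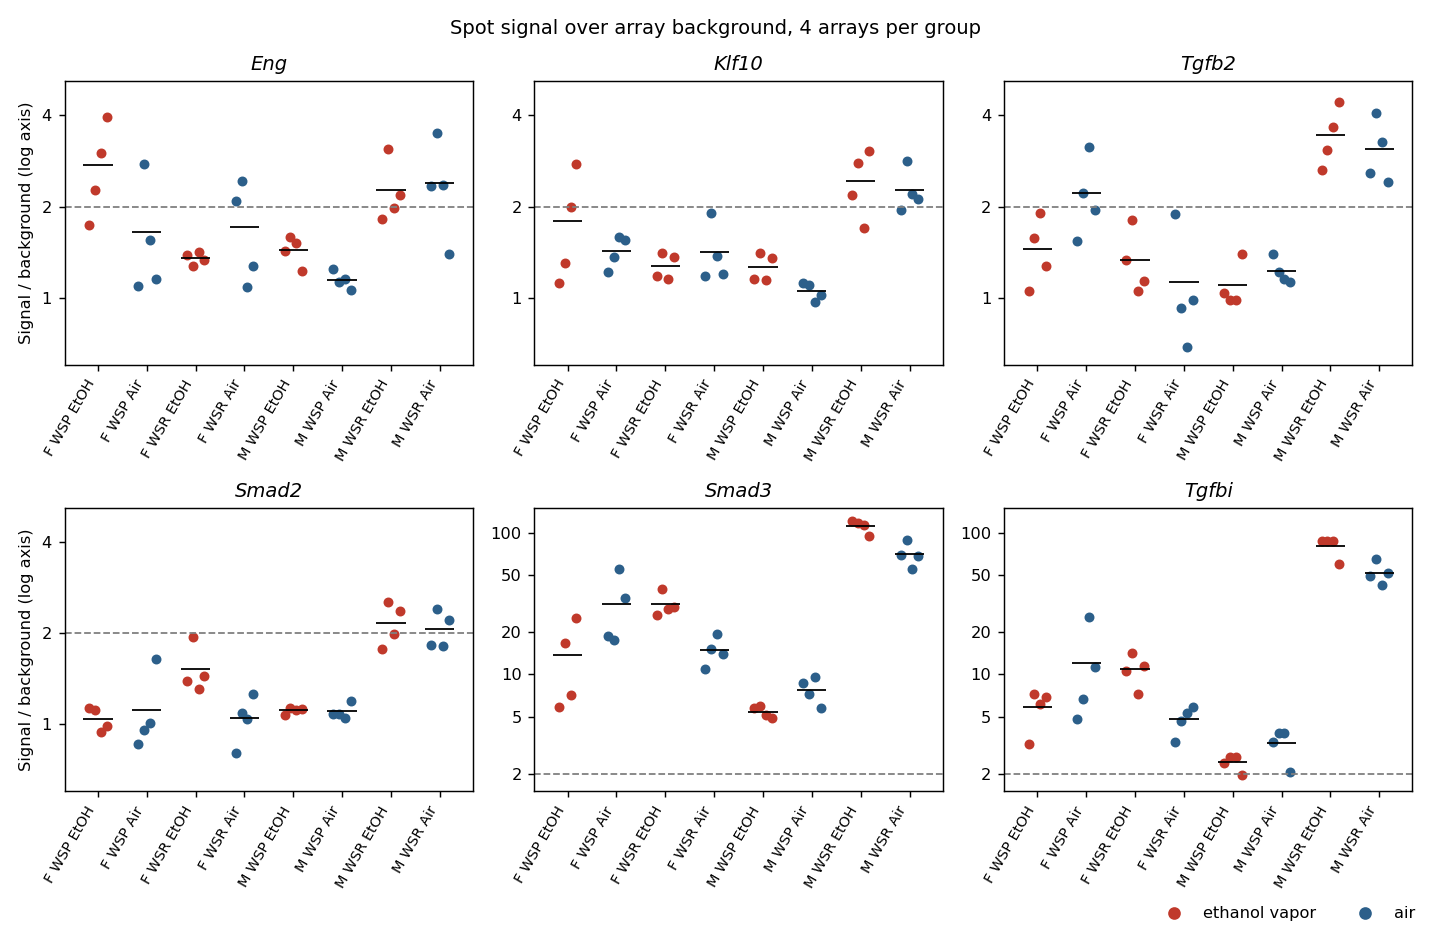
Signal divided by array background (log axes) for the 6 members, with 1 point per array, 4 arrays per group, and a bar at the group mean; the dashed line marks 2 times background. Smad3 lay above the line on all 32 arrays and Tgfbi on 31, while Eng, Klf10, Tgfb2 and Smad2 lay above it on 11, 7, 10 and 4.

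On the normalized scale, Eng stood at 6.64, 6.38, 6.58 and 6.92 in female WSP ethanol arrays, against 5.79, 6.76, 5.87 and 5.80 in female WSP air arrays. The groups overlapped through air replicate 2, a WSP-1 pool at 6.76. In male WSP, Eng was 6.53, 6.67, 6.58 and 6.20 after ethanol, against 6.02, 5.88, 5.95 and 5.84 in air, and these groups did not overlap. In female WSR it was 5.98, 5.84, 5.92 and 5.89 after ethanol, against 6.52, 6.47, 5.87 and 5.96 in air. In male WSR it was 5.85, 5.95, 5.85 and 5.87 after ethanol, against 5.94, 6.01, 5.91 and 5.80 in air. The ethanol minus air difference was 0.57 ± 0.16 in female WSP, 0.57 ± 0.16 in male WSP, -0.30 ± 0.16 in female WSR and -0.04 ± 0.16 in male WSR (SE, n = 4 and 4). Over both sexes it was 0.57 ± 0.11 in WSP and -0.17 ± 0.11 in WSR. No ethanol array of female WSR reached 2 times background and only 2 of 4 air arrays did, so there is no measured fold between these groups.

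The Eng difference in WSP was positive in each of the 4 combinations of sex and breeding line, from 0.24 in female WSP-1 and 0.49 in male WSP-2 to 0.65 in male WSP-1 and 0.91 in female WSP-2. In WSR it was -0.59 in female WSR-1 and between -0.08 and 0.00 in the other 3 combinations. The female WSR difference therefore came from the WSR-1 air pools at 6.52 and 6.47. Ordered by group mean, Eng was 6.63 ± 0.22 in female WSP ethanol, 6.49 ± 0.21 in male WSP ethanol, 6.20 ± 0.34 in female WSR air, 6.05 ± 0.47 in female WSP air, 5.92 ± 0.08 in male WSP air, 5.91 ± 0.09 in male WSR air, 5.91 ± 0.06 in female WSR ethanol and 5.88 ± 0.05 in male WSR ethanol (SD, n = 4). The ranges of neighbouring groups in this order overlapped throughout. The size of the WSP difference depended on scaling: over both sexes it was 0.16 with median scaling, 0.19 with cyclic loess and 1.19 without background correction.

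**Figure D2:**
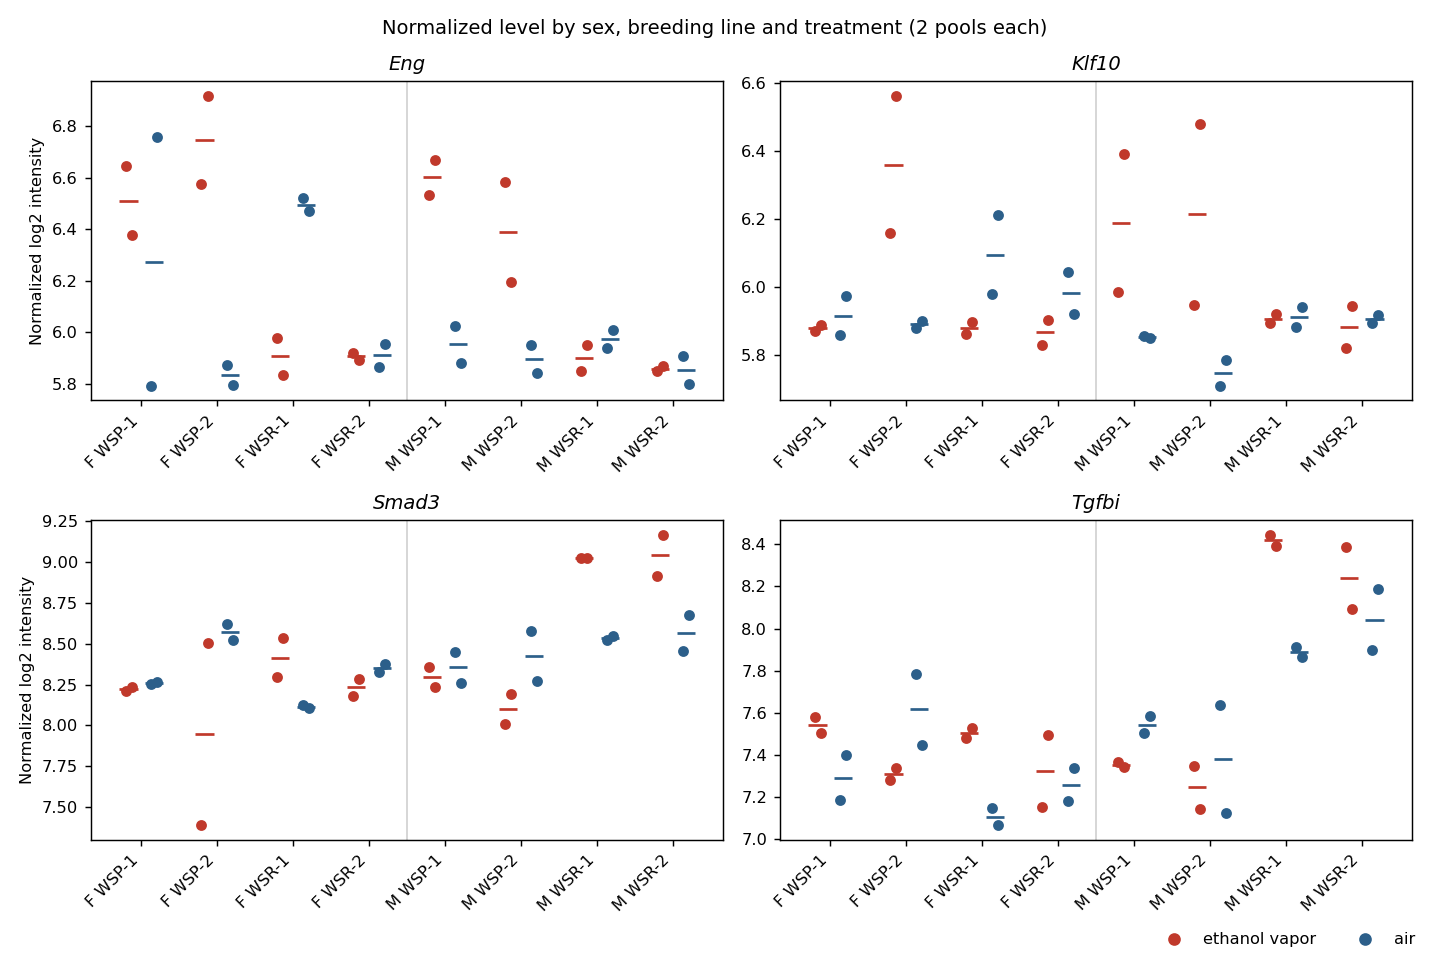
Normalized log2 level of Eng, Klf10, Smad3 and Tgfbi by sex (F, female; M, male) and breeding line, ethanol left of air, with 2 pools as points and their mean as a bar. Eng was higher after ethanol in all 4 WSP combinations, by 0.24 to 0.91, and Smad3 was higher after ethanol in both male WSR lines, by 0.49 and 0.48.

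Klf10 is an early response gene of TGF-beta that encodes a zinc finger repressor of transcription. It reached 2 times background on 7 arrays, 6 of them male WSR. In male WSP its level was 5.99, 6.39, 5.95 and 6.48 after ethanol, against 5.86, 5.85, 5.71 and 5.78 in air; the groups did not overlap, but no array of either group was at 2 times background. The ethanol minus air difference was 0.40 ± 0.11 in male WSP, 0.22 ± 0.11 in female WSP, -0.17 ± 0.11 in female WSR and -0.02 ± 0.11 in male WSR. In female WSP the level was 5.87, 5.89, 6.16 and 6.56 after ethanol, against 5.86, 5.97, 5.88 and 5.90 in air. Both ethanol arrays above the air range were WSP-2 pools, from mice given the higher ethanol dose. The ethanol minus air difference in females was 0.47 in WSP-2 and -0.04 in WSP-1. In female WSR the ethanol arrays, 5.83 to 5.90, lay below the air arrays, 5.92 to 6.21. No array of either group was at 2 times background there. In signal over background these groups overlapped, at 1.15 to 1.40 after ethanol against 1.18 to 1.90 in air. With median scaling the male WSP difference of Klf10 was 0.07 and with cyclic loess 0.08.

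Smad3, one of the SMADs that receptors of TGF-beta and activin phosphorylate, was at 2 times background on all 32 arrays and ranged from 4.95 to 122 times background. In male WSR its level was 9.02, 9.02, 8.92 and 9.17 after ethanol, against 8.53, 8.55, 8.46 and 8.67 in air, and the groups did not overlap. The difference was 0.48 ± 0.15 in male WSR, 0.09 ± 0.15 in female WSR, -0.33 ± 0.15 in female WSP and -0.19 ± 0.15 in male WSP. In female WSP the level was 8.21, 8.23, 7.39 and 8.50 after ethanol, against 8.25, 8.27, 8.62 and 8.53 in air. The lowest of these, 7.39, was WSP-2 pool 1, whose other pool stood at 8.50. In male WSP it was 8.36, 8.23, 8.01 and 8.19 after ethanol, against 8.45, 8.26, 8.58 and 8.27 in air. The ethanol minus air difference of Smad3 was below 0 in all 4 WSP combinations of sex and breeding line, between -0.63 and -0.04, and above 0 in 3 of 4 WSR combinations.

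Smad2, the other receptor-regulated SMAD of this branch, was at 2 times background on 4 arrays, all male WSR. Its ethanol differences were 0.14 ± 0.06 in female WSR and between -0.02 and 0.02 in the other 3 pairs of groups. Tgfb2 encodes a TGF-beta ligand and was at 2 times background on all 8 male WSR arrays and on 2 female WSP air arrays. Its ethanol differences were -0.20 ± 0.14 in female WSP, -0.08 ± 0.14 in male WSP, 0.00 ± 0.14 in female WSR and -0.02 ± 0.14 in male WSR. In male WSR, the groups in which every array measured it, Tgfb2 was at 5.95, 5.95, 5.99 and 6.04 after ethanol, against 5.96 to 6.07 in air.

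Tgfbi encodes a secreted matrix protein that TGF-beta induces. In male WSR its level was 8.45, 8.39, 8.39 and 8.09 after ethanol, against 7.91, 7.87, 7.90 and 8.19 in air. The ethanol difference was 0.36 ± 0.13 in male WSR, 0.23 ± 0.13 in female WSR, -0.03 ± 0.13 in female WSP and -0.16 ± 0.13 in male WSP. It was positive in all 4 WSR combinations of sex and breeding line, from 0.07 to 0.53, and positive in 1 of 4 WSP combinations.

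**Figure D3:**
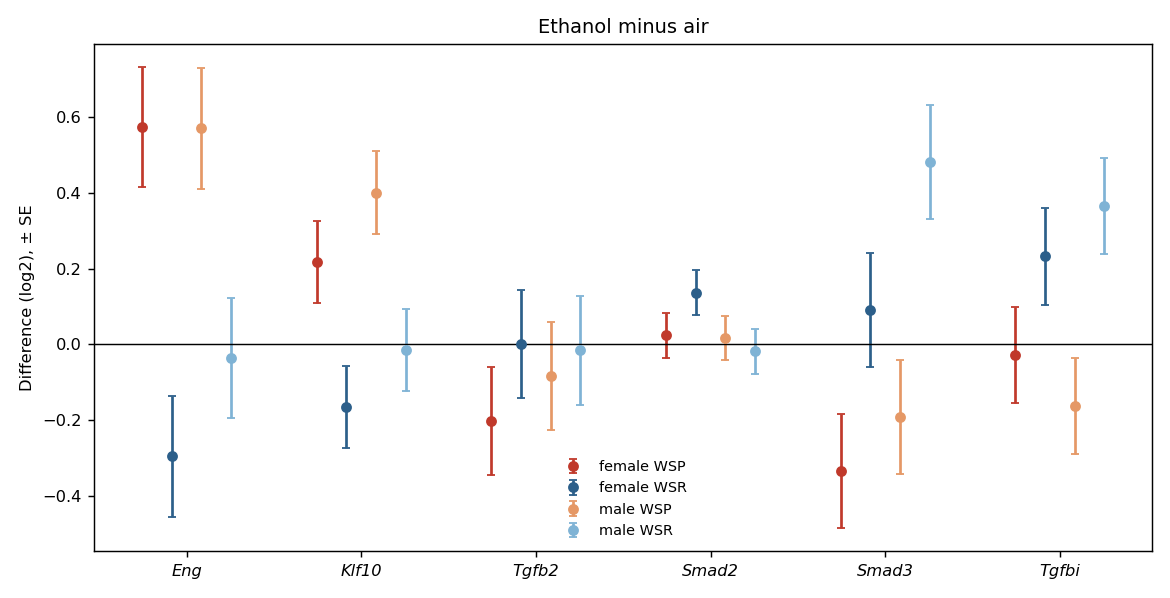
Ethanol minus air on the log2 scale for each member in female WSP, female WSR, male WSP and male WSR, with SE (4 arrays against 4). Eng had 0.57 in both WSP groups, Klf10 had 0.40 in male WSP, and Smad3 had 0.48 in male WSR.

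The ethanol and air groups did not overlap on the normalized scale in 4 of the 24 member and group pairs. These were Eng and Klf10 in male WSP, Smad3 in male WSR and Klf10 in female WSR. Of these pairs, only that of Smad3 had any array at 2 times background. Of all tested spots, 5.57% did not overlap in male WSP, 3.79% in male WSR, 5.37% in female WSR and 3.74% in female WSP. Of all 2084 spots, limma called 0.384% in WSP females, 0.048% in WSP males, 0.048% in WSR females and 0% in WSR males at an adjusted p of 0.05 (64 spots in WSR males had an unadjusted p below that). Of the 6 members, 3 had a positive difference in WSP females, 3 in WSP males, 3 in WSR females and 2 in WSR males. The members' median differences were -0.0024, -0.03, 0.05 and -0.02 in that order, and those of all tested spots were -0.0049, -0.0031, 0.05 and 0.0056. Nothing is read from these counts, since the members were chosen on the same contrast.

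The line and sex differences of Eng and Smad3 are also descriptions, because the ethanol and air arrays that enter them are those of the ethanol differences on which both had been chosen; values over air arrays alone are given beside them. Over all arrays Eng was higher in WSP by 0.30 ± 0.08. Over air arrays alone Eng averaged 5.99 in WSP and 6.06 in WSR, a difference of -0.07 ± 0.11. With median scaling the difference of Eng over all arrays was -0.04, so its direction depends on scaling, and in the authors' scores it was 0.30. In signal over background, male WSP arrays stood at 1.06 to 1.58 and male WSR arrays at 1.40 to 3.50, the opposite order from the normalized means of 6.21 and 5.90.

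Smad3 had a WSP minus WSR difference of -0.26 ± 0.08 over all arrays, which was -1.86 with median scaling and -0.46 with cyclic loess. Over air arrays alone Smad3 averaged 8.40 in WSP and 8.39 in WSR. In males the difference was 0.31 ± 0.11 for Eng and -0.50 ± 0.11 for Smad3 over all arrays, and 0.01 ± 0.16 and -0.16 ± 0.15 over air arrays alone.

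Tgfbi had not been singled out on its ethanol values, and over all arrays it was lower in WSP by -0.31 ± 0.06 (limma, adjusted p = 0.00012). Counting Eng and Smad3, from which no test is read, 3 of 6 members were past the threshold. Of all tested spots, 54.4% were called. Those spots were 467 higher and 667 lower in WSP, against 31 higher and 1718 lower under median scaling. In males Tgfbi had -0.77 ± 0.09 (limma, adjusted p = 1.1e-08), with 58.3% of all spots called. The same 3 members were past the threshold, and again no test is read from Eng and Smad3. In females 1 of 6 members was past the threshold, Smad2 at -0.13 ± 0.04, where 12.1% of all spots were called. Smad2 was at 2 times background on no female array and entered the fit through male WSR arrays alone, so no test is read from it, and with female arrays fitted alone it was not called. Over air arrays alone, 0 of 6 members were past the threshold between lines in limma, none at an unadjusted p of 0.05 either, where 39.8% of all spots were called. Smad2, Klf10 and Tgfb2 were at 2 times background on 0, 1 and 2 of the 24 arrays outside male WSR. They passed the filter through male WSR, so no test is read from them in any contrast. The test over air arrays is therefore read from Tgfbi alone, at -0.12 ± 0.09 (limma, adjusted p = 0.32).

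Tgfbi was the member whose line difference was called in air arrays of males. It stood at 7.50, 7.59, 7.64 and 7.13 in male WSP air arrays, against 7.91, 7.87, 7.90 and 8.19 in male WSR air arrays, with no overlap. The difference was -0.50 ± 0.13 (limma, adjusted p = 0.0016), and 44.8% of all spots were called. In air arrays of females Tgfbi had 0.27 ± 0.13 (adjusted p = 0.24, 6.67% of all spots called). The difference in male air arrays was -2.88 with median scaling, -0.89 with cyclic loess, -0.70 without background correction and -1.98 in the authors' scores, each called. Under median scaling the median of all tested spots in this contrast was itself -0.62.

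Between the sexes, Tgfbi was lower in females by -0.40 ± 0.06 (limma, adjusted p = 4.1e-06). Smad3 had -0.28 ± 0.08 over all arrays and -0.15 ± 0.11 over air arrays alone. Counting Smad3, from which no test is read, 2 of 6 members were past the threshold over all arrays. Of all tested spots, 59.2% were called. Those spots were 495 higher and 739 lower in females, against 268 higher and 954 lower under median scaling and 679 higher and 565 lower in the authors' scores. In the authors' scores the Smad3 difference was 0.07, the opposite direction. Within WSR Tgfbi had -0.85 ± 0.09 (adjusted p = 1.4e-09) and Smad3 -0.51 ± 0.11, with 60.2% of all spots called. Within WSP limma called 0 of 6 members (1, Smad2, at an unadjusted p of 0.05, 18.7% of all spots called). A test is read there from Tgfbi alone, at 0.06 ± 0.09 (limma, adjusted p = 0.73), while Smad3 had -0.04 ± 0.11. The line difference itself differed between females and males for Tgfbi by 0.91 ± 0.13 (limma, adjusted p = 6.4e-07), where 53.1% of all spots were called. That value was 0.47 ± 0.15 for Smad3 and -0.15 ± 0.06 for Smad2, given without a test for the reasons above.

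Over air arrays alone Tgfbi was the member called between the sexes, at -0.40 ± 0.09 (limma, adjusted p = 0.00065, 43.9% of all spots called). In WSR air arrays it stood at 7.15, 7.07, 7.18 and 7.34 in females, against 7.91, 7.87, 7.90 and 8.19 in males, a difference of -0.78 ± 0.13 (adjusted p = 5.9e-06, 43% of all spots called). In WSP air arrays 0 of 6 members were called, none at an unadjusted p of 0.05 (limma, 11.3% of all spots called). A test is read there too from Tgfbi alone, which had -0.01 ± 0.13. Male WSR was the brightest set of arrays, and the line and sex differences of Smad3 and Tgfbi both rested on it. The part of array brightness in them was not tested.

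**Figure D4:**
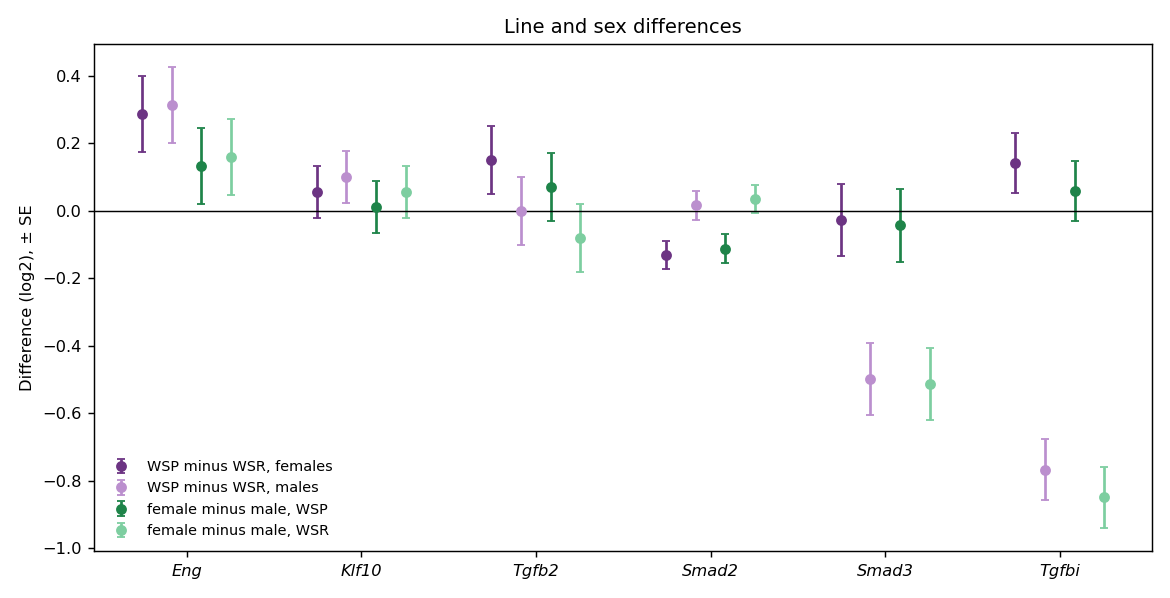
Line and sex differences on the log2 scale with SE, over ethanol and air arrays together (8 arrays against 8). Smad3 and Tgfbi were lower by 0.50 to 0.85 wherever male WSR was on the other side, and close to 0 or above it for Tgfbi in females and in WSP.

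Other genes of the pathway were taken by title, and 12 further spots matched, 5 of them never at 2 times background. The 2 that were tested were bone morphogenetic protein 1, a protease that processes procollagens and other matrix proteins, and inhibitor of DNA binding 1, a target of bone morphogenetic protein signalling. Their ethanol differences in the 4 pairs of groups lay between -0.03 and 0.11. The arrays at 2 times background, 8 and 6 of them, were all male WSR, so no test is read from their ethanol or line differences. The line differences were -0.40 ± 0.04 and -0.14 ± 0.03 in males and -0.01 ± 0.04 and 0.06 ± 0.03 in females. A spot titled transforming growth factor beta 1 induced transcript 1 fell outside the rule and this list by its wording, and reached 2 times background on 5 arrays. Its ethanol differences lay between 0.02 and 0.13. Its line difference was -0.12 ± 0.05 in males and 0.03 ± 0.05 in females.

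The title search found few measured vessel genes against which Eng could be set. Of the vessel titles searched, 3 spots matched: caveolin 2, found in caveolae of endothelium, was at 2 times background on 0 of 32 arrays, angiopoietin-like 3 on 8 and selectin platelet ligand, best known from leukocytes that bind to vessel walls, on 32. After ethanol in WSP over both sexes, selectin platelet ligand had -0.15 and was not called (limma, adjusted p = 0.58). Angiopoietin-like 3 had -0.09, but its arrays at 2 times background were all male WSR, so no test is read from it. The sum of signal over background of the 3 spots was 8.89 to 27.2 in female WSP ethanol arrays, against 25.5 to 66.0 in air, and 8.0 to 11.7 in male WSP ethanol arrays, against 8.82 to 12.6 in air. Procollagen type IV alpha 1, a chain of vessel basement membrane, had 0.03 after ethanol in WSP over both sexes. It was at 2 times background on only 8 of 32 arrays, so no lack of change is read from this value. Selectin platelet ligand carried most of each sum, with 6.79 to 25.0 in female WSP ethanol arrays, against 23.3 to 63.4 in air, while caveolin 2 had 0.963 to 1.23 in those ethanol arrays, against 0.853 to 1.08 in air. Signal over background moves with array brightness, so the sum does not measure vessel content, whose part in the Eng values was not tested.

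The spots most like each chosen member over the 32 arrays are given as a description, since spots of 1 array share its hybridization. Among 452 other titled spots, Eng was closest to guanine nucleotide binding protein alpha 13 (Pearson r = 0.81, Spearman rho = 0.80), proteolipid protein of myelin (r = 0.70, rho = 0.62) and the spot titled ESTM671070 (r = 0.63, rho = 0.83). Smad3 was closest to cyclin-dependent kinase regulatory subunit 1 (r = 0.91, rho = 0.83), ferrochelatase (r = 0.84, rho = 0.82) and galactokinase (r = 0.79, rho = 0.79). Klf10 was closest to gamma-fibrinogen (r = 0.78, rho = 0.58), zinc finger protein 62 (r = 0.73, rho = 0.52) and Rous sarcoma oncogene (r = 0.67, rho = 0.40). Tgfb2 was closest to small inducible cytokine subfamily D, 1 (r = 0.53, rho = 0.62). Without the 2 arrays farthest from the median of the member, the first of these had r = 0.81 for Eng, 0.86 for Smad3, 0.48 for Klf10 and 0.68 for Tgfb2. Between members, r was 0.61 for Eng and Klf10 and 0.79 for Smad3 and Tgfbi; without the 8 male WSR arrays Smad3 and Tgfbi had 0.46.

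Of these closest spots, 10 of 12 lay in the printed block of the member. All 3 spots closest to Eng lay in its own printed block, and guanine nucleotide binding protein alpha 13 stood in the same column, 22, at row 10 against row 7 for Eng. The 3 spots closest to Klf10 and the 3 closest to Tgfb2 also lay in the block of the member, and the spot closest to Smad3 was directly beside it, while ferrochelatase and galactokinase lay in other blocks. The median r with adjacent spots was 0.24 for Eng (8 spots), 0.47 for Smad3 (7), 0.17 for Klf10 (7), 0.40 for Tgfb2 (5), 0.16 for Smad2 (8) and -0.12 for Tgfbi (4). With spots of other blocks it was 0.03, -0.11, 0.01, -0.03, 0.01 and -0.16 in that order.

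For Eng, the brightness of its block was measured from the 58 spots there that never reached 2 times background, as the difference of their median log2 signal from that of the 1741 such spots elsewhere. The WSP ethanol arrays had -0.09 to 0.07 and the WSP air arrays -0.05 to 0.24. The 133 other tested spots of the block had a median ethanol difference of -0.02 in WSP over both sexes, and the 1950 tested spots elsewhere had -0.0028. In that contrast Eng had 0.57 and guanine nucleotide binding protein alpha 13 had 0.62, and both lie in this block and in the same column. Eng was chosen with its ethanol differences known, so no test is read from its value. Over the 8 spots adjacent to Eng, r with Eng ran from -0.31 to 0.68, the highest for a spot that never reached 2 times background. The WSR-1 female air arrays, which held the high Eng values of 6.52 and 6.47, had the brightest blocks of all 32 arrays, at 0.79 and 0.46. The part of position in the Eng and Klf10 values was not tested.

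**Figure D5:**
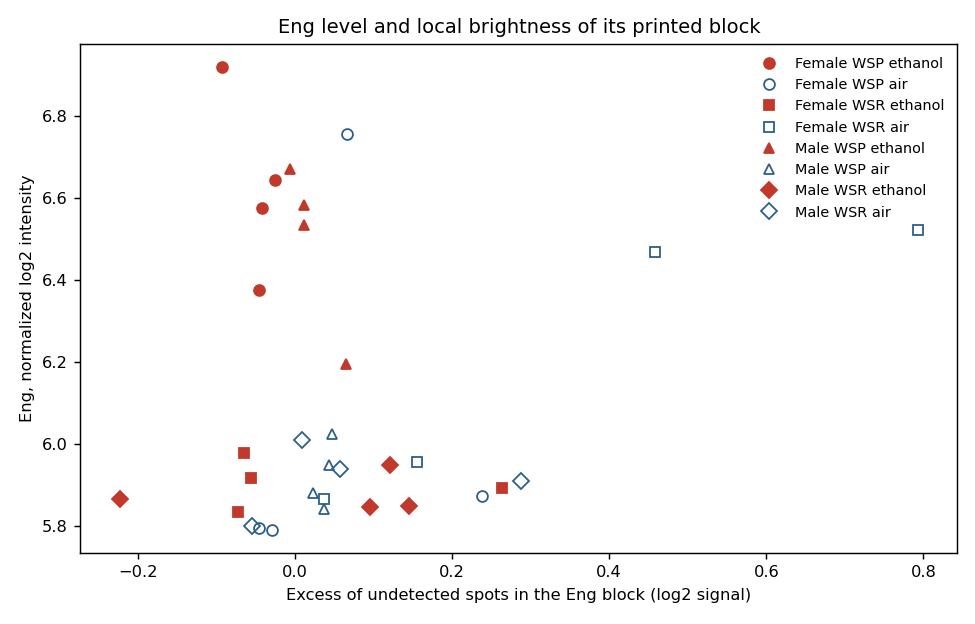
Normalized log2 level of Eng against the excess log2 signal of undetected spots in its printed block, with 1 point per array, filled for ethanol and open for air. The 8 WSP ethanol arrays lie between -0.09 and 0.07 on the horizontal axis, and 2 female WSR air arrays lie apart at 0.46 and 0.79.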

How the data were processed

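The 32 arrays were hybridized with 33P-labelled RNA, per the labels' protocols. The deposited array files held an intensity per spot and 1 background intensity per array, not subtracted. For the array platform and its software, the labels name none. The authors' deposited table held a score per spot that was a linear function of the log2 intensity of each array, so its direction is known; array medians lay between 7.29 and 8.55, each array was centred and scaled on its own, and 0 of its columns lacked a sample. Scores were missing for 5 arrays of Smad2, 5 of Tgfb2 and 1 of Klf10, and fits on them drop these arrays. Spots were joined by spot number, since 1 file was not in spot order. The header lines of male WSP ethanol replicate 3 and male WSR air replicate 2 give the number of the other pool of the same group; the labels were followed.

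Intensities were corrected with normexp (offset 50), taken to log2 and quantile normalized over the 4696 gene spots. Spots at 2 times background on at least 4 arrays were fitted with limma 3.58.1 (R 4.3.3): 8 group means, intensity trend, 24 residual degrees of freedom, Benjamini-Hochberg adjustment over 2084 spots, call at 0.05. The fit was tested on simulated data. Same-numbered arrays deviated together weakly in the median (r = 0.03, range -0.16 to 0.41), and 25 of 112 pairs had a correlation over 0.1. Numbers were not used as pairs in the main fit. The number of arrays limits the precision.

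The members and lists were chosen with earlier results of these data known. Named were all 6 members, the 3 titled spots closest by correlation to each of Eng, Smad3, Klf10 and Tgfb2 (of Tgfb2 the closest is described), and the tested members of the pathway and vessel lists. Marker lists for mural cells, astrocytes, oligodendrocytes, microglia, neurons, choroid plexus and blood were matched too; after ethanol in WSP over both sexes their tested spots had differences between -0.11 (transthyretin) and 0.26 (proteolipid protein), and limma called none. Contrasts over air arrays alone, the test of the line difference between the sexes and the values by position and the shares of spots without overlap were added after seeing the data. Titles are those of the array files.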

Additional observations from a re-analysis of the deposited data

Results flagged for a closer look

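Single arrays stood apart from the other 3 of their group, by Dixon's criterion for 4 values, in 9 of the 48 member and group combinations, where chance alone gives about 1 in 20. Eng was high at 6.76 in female WSP air replicate 2, against 5.79 to 5.87. Smad2 was high at 6.08 in male WSP air replicate 4, against 5.80 to 5.83. Tgfb2 was high at 6.40 in female WSR air replicate 1, at 6.55 in male WSP ethanol replicate 4 and at 6.24 in male WSP air replicate 1. Tgfbi was low at 7.15 in female WSR ethanol replicate 3, at 7.14 in male WSP ethanol replicate 4 and at 8.09 in male WSR ethanol replicate 4, and high at 8.19 in male WSR air replicate 4.

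The WSP minus WSR difference of Tgfbi was 0.14 in females and -0.77 in males on the log2 scale. The female value minus the male value was 0.91 ± 0.13 (SE), by a test of the difference itself in limma. The same value was 0.47 for Smad3, which was chosen on its ethanol values, and -0.15 for Smad2, which was at 2 times background on male WSR arrays alone, so no test is given for either. The ethanol difference of Eng was larger in WSP than in WSR by 0.74 ± 0.16 (SE); Eng was chosen on this value, so no test is given.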

How the results depend on the processing

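The ethanol difference of Eng in WSP over both sexes (0.57) was 0.16 with median scaling, 0.19 with cyclic loess, 1.19 without background correction and 0.98 in the authors' scores. Its excess over WSR (0.74) was 0.27, 0.34, 1.54 and 1.37 under the same settings. Klf10 in male WSP (0.40) was 0.071, 0.080 and 0.99 under the first 3. Smad3 in male WSR (0.48) was 0.31 with cyclic loess, 0.28 in the authors' scores and 0.64 with median scaling. Leaving out replicates in turn gave 0.52 to 0.70 for Eng in WSP, 0.65 to 0.80 for its excess over WSR, 0.48 to 0.49 for Smad3, 0.30 to 0.49 for Klf10, 3 to 4 members called between lines and 2 to 2 between sexes. With the replicate block these values were 0.57, 0.74, 0.48, 0.40, 3 and 2. Members called between lines (3) were 5 with median scaling and 0 on female arrays alone (1 at an unadjusted p of 0.05, limma: Smad2, whose call is lost); called between sexes (2), 0 on WSP arrays alone (1 unadjusted). The counts of called members as reported include Smad3, and between lines Eng too, from which no test is read. The 5 under median scaling did not include Eng. They included Klf10 and Tgfb2, each in the opposite direction from the main fit, and no test is read from those either. Over all tested spots, calls between lines numbered 1134, and 1749 with median scaling. Direction turned for Eng between lines with median scaling (-0.035), for Klf10 and Tgfb2 between lines with median scaling (-0.090 and -0.14) and in the authors' scores (-0.024 and -0.30), and for Smad3 between sexes in the authors' scores (0.069). For sex differences near 0, it turned for Klf10 (0.033 as reported) with median scaling (-0.0082) and without replicate 3 (-0.0011; 0.055 at most without another), and for Tgfb2 (-0.0056) in the authors' scores (0.14), with array weights (0.015) and without replicate 4 (0.077; -0.057 at least without another). The cause was not tested. Spots under 2 times background limit Eng, Klf10, Tgfb2 and Smad2. With the filter on 8 arrays Klf10 and Smad2 were not tested.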
